A study of Mus musculus with 37 samples.

Results

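The smooth muscle contractile genes are 10 genes named by symbol: Acta2, Myh11, Tagln, Cnn1, Des, Actg2, Smtn, Lmod1, Mylk and Myocd. They were taken from the 24421 gene symbols measured by RNA sequencing in mouse lung, and all 10 were among the 16977 genes that passed the filter on low counts. Lung RNA of 37 C57BL/6 mice was sequenced, 1 library per mouse. Of these, 6 mice received 0.75 Gy of silicon ions at 300 MeV/u and drank nicotinamide riboside (NR), a form of vitamin B3, at 12 mM from before the exposure onwards (silicon + NR). Another 7 received the same silicon dose without NR (silicon). A simulation of galactic cosmic radiation (GCR) was given at 0.75 Gy to 7 mice as protons of 250 MeV (39.2%) and 1 GeV (34.8%), helium ions (18.0%), oxygen ions (5.8%), silicon ions (1.1%) and iron ions (1.0%). Gamma rays from a caesium source, also 0.75 Gy, were given to 5 mice (gamma). A mock exposure of 0 Gy was given to 5 mice with NR (mock + NR) and to 7 mice without it (mock). The groups held 4 males and 2 females in silicon + NR, 3 and 4 in silicon, 3 and 4 in GCR, 3 and 2 in gamma, 4 and 1 in mock + NR, and 5 and 2 in mock. No transgene or gene deletion is given for any group. How old the mice were, and how long after exposure the lungs were taken, is not stated in the labels.

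Smooth muscle in the lung wraps the airways, the pulmonary arteries and the veins, and its tone sets how wide they are. In these cells actin and myosin filaments slide past each other after calcium and calmodulin activate myosin light chain kinase, and calponin, transgelin and caldesmon act on the actin filaments. Serum response factor, bound to short DNA elements called CArG boxes and joined by the coactivator myocardin, drives much of this gene programme, and the same factor also acts on the actin genes of skeletal and heart muscle.

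The actin genes of smooth and of skeletal muscle are the pair that the comparison with Acta1 rests on, so the 250 bases before their start sites are shown with CArG boxes in capitals. The sequences are from RefSeq on GRCm38.p6, whose promoter table held 6 of the 10 members (Acta2, Cnn1, Des, Smtn, Lmod1 and Mylk). The Acta2 stretch is chr19:34255374-34255623 and the Acta1 stretch is chr8:123894776-123895025, both on the minus strand, written 5′ to 3′.
Acta2: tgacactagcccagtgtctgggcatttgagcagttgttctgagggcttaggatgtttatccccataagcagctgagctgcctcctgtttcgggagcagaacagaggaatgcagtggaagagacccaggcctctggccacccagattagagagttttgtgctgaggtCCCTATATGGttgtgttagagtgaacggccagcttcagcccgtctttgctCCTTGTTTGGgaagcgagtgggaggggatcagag
Acta1: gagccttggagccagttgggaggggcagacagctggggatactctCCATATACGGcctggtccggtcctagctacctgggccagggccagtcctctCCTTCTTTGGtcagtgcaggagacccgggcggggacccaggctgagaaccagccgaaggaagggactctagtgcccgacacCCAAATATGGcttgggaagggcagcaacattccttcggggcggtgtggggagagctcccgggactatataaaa
A CArG box is a run of A and T between CC and GG, and it was searched on both strands, exactly and with 1 G or C allowed inside the run, over 250 bases before to 50 after each start. An exact box was found in 0 of the 6 members and in 1.63% of 32851 promoters. With 1 G or C allowed, 1 of the 6 members held a box, against 9.98% of all promoters. That member was Acta2, whose CCCTATATGG and CCTTGTTTGG begin 84 and 34 bases before the start. Acta1 held an exact CCAAATATGG at 73 bases before the start, and further forms with 1 G or C at 205 and 154 bases. A MEF2 motif, bound by another family of muscle factors and found in 1.86% of promoters, was in none of these 6 nor in Acta1. No match says only that these letters are not in this window. Each gene had 1 start in the promoter table, and for some, such as Mylk, it lies inside the gene span given below. Other starts of these genes were not searched.

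Per kilobase of exon, the members covered a wide range of levels. The values are medians over the 37 libraries in counts per 1000000 counts of the library (CPM) per kilobase, with positions on mm10. Acta2, the alpha actin of smooth muscle (chromosome 19, 34241090 to 34255590), was at 208 CPM per kilobase. Actg2, the gamma actin best known from gut muscle (chromosome 6, 83512905 to 83536265), was at 45.4 CPM per kilobase. Myh11, the smooth muscle myosin heavy chain (chromosome 16, 14194535 to 14291372), was at 19.04 CPM per kilobase. Tagln, the actin-binding protein transgelin (chromosome 9, 45929619 to 45936058), was at 152 CPM per kilobase. However, 67.9% of its exon bases overlap Pcsk7 and Gm48529 on the opposite strand, and the libraries do not mark strand, so its level is uncertain. Cnn1, calponin, which damps the myosin ATPase (chromosome 9, 22099216 to 22109630), was at 59.9 CPM per kilobase.

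Des, the intermediate filament desmin of smooth, skeletal and heart muscle (chromosome 1, 75360329 to 75368579), was at 103 CPM per kilobase. Mylk, myosin light chain kinase, which has a long form in endothelium (chromosome 16, 34745210 to 35002420), was at 14.98 CPM per kilobase. Smtn, the actin-bound smoothelin (chromosome 11, 3517523 to 3540612), was at 18.5 CPM per kilobase, with 16.3% of its exon bases under antisense genes. Des lay between the 2 actins in level, and Mylk and Smtn below both. Lmod1, leiomodin, which nucleates actin filaments (chromosome 1, 135324807 to 135368065), was at 4.11 CPM per kilobase. Myocd, the coactivator myocardin, also of heart muscle (chromosome 11, 65176561 to 65269989), was lowest at 0.605 CPM per kilobase. Its smallest count was 28, in GCR replicate 1. Stretches of 50 bases that occur in another gene's transcripts made up at most 0.340% of any member, the value of Myh11.

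Libraries stood apart in what tissue they held. Total counts ran from 9485197 to 66381526. Acta1, the actin of skeletal muscle (chromosome 8, 123891769 to 123894751), was over 1000 CPM in 13 libraries: 2 of 6 silicon + NR, 5 of 7 silicon, 0 of 7 GCR, 0 of 5 gamma, 2 of 5 mock + NR and 4 of 7 mock. The lowest of these was at 2195 CPM, and the highest of the other 24 at 403 CPM. The 18 skeletal muscle markers summed to 147 to 70789 CPM in silicon + NR, 405 to 103842 in silicon, 67.4 to 291 in GCR, 70.6 to 1241 in gamma, 69.4 to 73579 in mock + NR and 56.9 to 57946 in mock. Nppa, the atrial natriuretic peptide of heart muscle, was over 10000 CPM in gamma replicates 3 and 4. Rn45s, the ribosomal RNA precursor, was over 100000 CPM in GCR replicates 2, 5 and 6 and mock replicate 4. Scgb1a1, a marker of the club cells of lung airways, was at 25010 CPM or more in every library, and no gene of the 9 alveolar or 6 airway markers was at 0 in all libraries.

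Against Acta1, the 10 genes did not behave alike. Des was at 513, 2882 and 4488 CPM (lowest, median and highest) in the 13 libraries over 1000 CPM of Acta1, against 29.7, 190 and 670 CPM in the other 24. The ratio of the medians was 15.2, and 12 of the 13 libraries lay above the highest of the 24. Lmod1 was at 18.9, 50.5 and 87.8 CPM in the 13 libraries, against 5.43, 12.97 and 39.6 CPM in the 24. The ratio was 3.89, and 9 of the 13 lay above all 24. Smtn was at 72.2, 106 and 144 CPM in the 13 libraries, against 14.5, 51.6 and 148 CPM in the 24, a ratio of 2.05 with overlapping ranges. The smooth muscle actins and myosin differed less between the sets. Their ratios of medians were 1.79 for Actg2, 1.43 for Acta2 and 1.40 for Myh11. Those of the remaining members were 1.17 for Cnn1, 1.01 for Tagln, 0.877 for Myocd and 0.803 for Mylk. In these 7 genes at most 1 of the 13 libraries lay above the highest of the 24. These ratios are a description, since the limit on Acta1 was placed with earlier results of these data known.

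**Figure D1:**
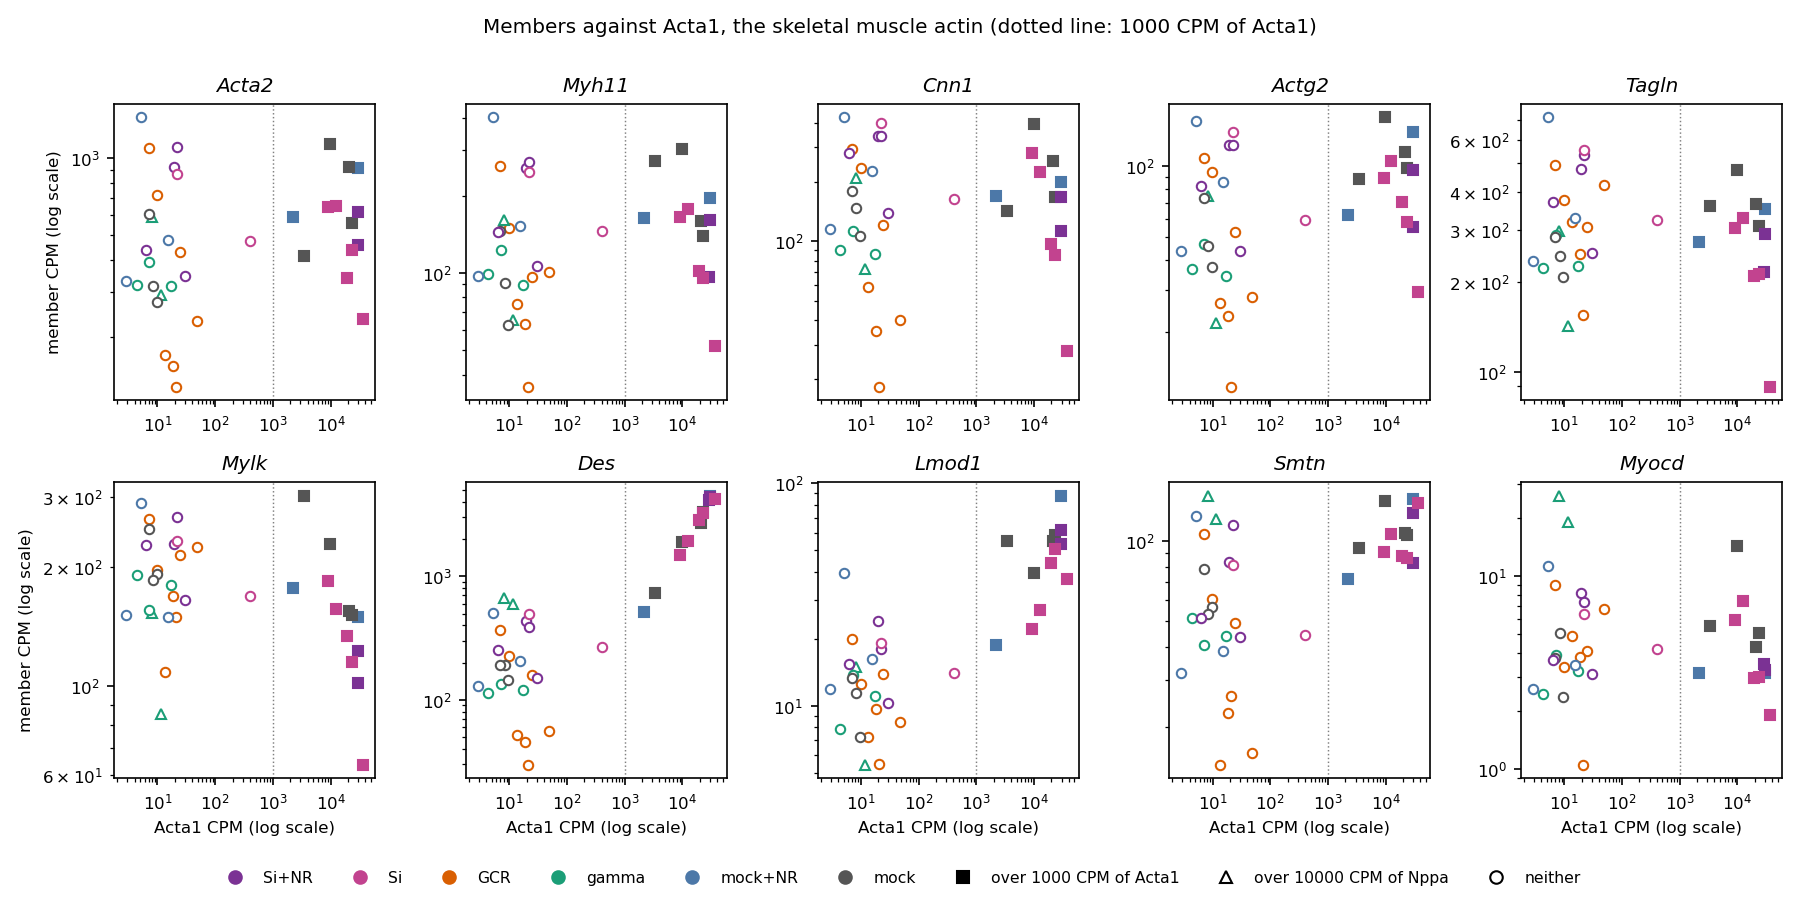
CPM of each member (y axis, log scale) against CPM of Acta1 (x axis, log scale) in the 37 libraries, 1 point per library, with colours for groups and the dotted line at 1000 CPM of Acta1. Des climbs with Acta1 among the 13 libraries right of the line, from 513 to 4488 CPM, while Acta2, Myh11, Cnn1 and Tagln spread over like ranges on both sides.

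The slope of each gene on log2(Acta1 CPM + 1) was tested with edgeR's quasi-likelihood test in a model that also held the 6 groups and sex. Genes with a Benjamini-Hochberg adjusted p under 0.05 over all genes tested were called. Slopes were called for 33.2% of the genes tested, and for 20.2% with a higher level at more Acta1. Of the 10 members, 3 were called, all 3 higher with Acta1. Per doubling of Acta1, log2 Des rose by 0.33 (SE 0.04, adjusted p = 6.21e-08), Lmod1 by 0.17 (SE 0.03, adjusted p = 2.39e-06) and Smtn by 0.08 (SE 0.03, adjusted p = 0.0232). Mylk had a slope of -0.04 (SE 0.02, adjusted p = 0.0624), and the other 6 had slopes from -0.05 in Cnn1 to 0.02 in Actg2. Because the libraries fall into 2 sets, the slope was fitted again in each set. Within the 13 libraries over 1000 CPM of Acta1, Des had a slope of 0.79 (adjusted p = 0.000135) and Mylk one of -0.29 (adjusted p = 0.0303), both called, as were 17.9% of all genes there. Lmod1 and Smtn had 0.34 and 0.19 there, which were not (adjusted p = 0.0866 and 0.138). Within the other 24, Des, Lmod1 and Smtn had slopes of -0.27, -0.13 and -0.25, and 0 of 10 members were called (adjusted p = 0.999 for each of these 3). In these 24 libraries Acta1 ran from 2.87 to 48.5 CPM, save silicon replicate 3 at 403 CPM. This leaves little range for a slope. Without the 3 libraries over 100 CPM of Ccl19, a chemokine of lymphoid stroma, the slope of Smtn was 0.06 (adjusted p = 0.0673).

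With heart muscle the order of the members was another. A slope on log2(Nppa CPM + 1), chosen after the data were seen, was fitted with the groups, sex and log2(Acta1 CPM + 1) in the model. The slopes on Acta1 above had no Nppa term, so the models are not alike. The Nppa slope was called for 7.9% of all genes, 6.31% rising and 1.59% falling with Nppa. It was called for 7 of the 10 members, all 7 higher with Nppa. Myocd rose by 0.23 per doubling of Nppa (SE 0.03, adjusted p = 6.57e-07), and its CPM was 19.01 and 25.96 in the 2 Nppa-rich gamma libraries, against 2.45, 3.22 and 3.89 in the other 3 of that group. Cnn1 and Des rose by 0.16 each, Acta2 by 0.13, Myh11 and Actg2 by 0.12 each and Smtn by 0.10, with adjusted p from 0.00377 to 0.0228. Tagln, Lmod1 and Mylk had slopes of 0.08, 0.06 and 0.02, which were not called (adjusted p = 0.0553, 0.298 and 0.712). Without the 2 Nppa-rich libraries the slope of Myocd was 0.20 (adjusted p = 0.000504). Des and Smtn then had slopes of 0.13 and 0.08 and were no longer called (adjusted p = 0.137 and 0.217), and Tagln rose by 0.14 (adjusted p = 0.00414). Of all genes 3.49% were called in that fit.

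**Figure D2:**
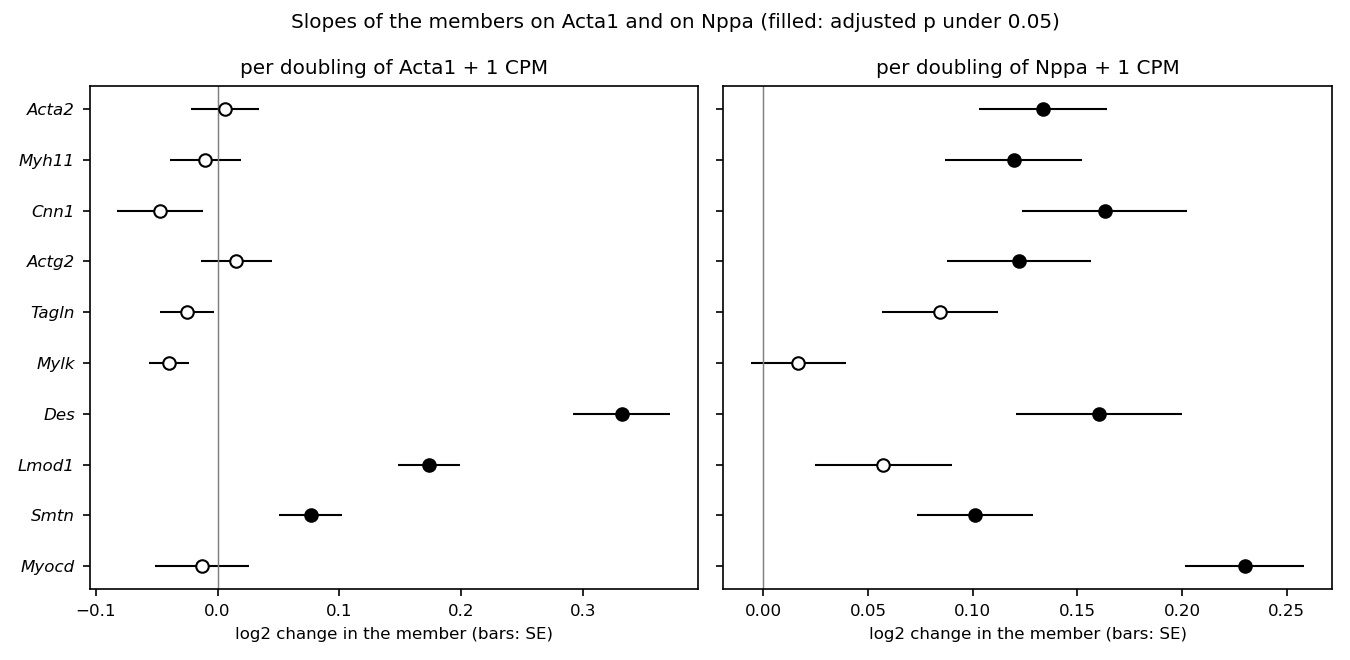
Fitted slopes of the 10 members on Acta1 (left) and Nppa (right), as log2 change per doubling of CPM + 1, with bars for the SE and filled points for an adjusted p under 0.05. The Nppa slopes are adjusted for Acta1, and the Acta1 slopes are not adjusted for Nppa. Des, Lmod1 and Smtn are filled on the left, and Myocd lies farthest right on the Nppa side at 0.23.

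Among themselves, the members kept together more closely once the libraries over the Acta1 and Nppa limits were left out. Over the 22 libraries without the 13 over 1000 CPM of Acta1 and the 2 over 10000 CPM of Nppa, Pearson's r of log2 CPM was above 0 in all 45 pairs, with a median of 0.82 and a range from 0.45 to 0.98. Over all 37 libraries the median was 0.54, the range -0.33 to 0.94, and 41 of the 45 pairs were above 0. Acta2, Myh11, Cnn1 and Actg2 formed the closest group, with r from 0.89 to 0.94 in their 6 pairs over the 37 libraries. Des with Cnn1 had an r of 0.98 over the 22 libraries and 0.35 over the 37. Mylk with Des had 0.66 over the 22 and -0.33 over the 37. The 22 libraries were not free of heart muscle, whose markers summed to 12308 CPM in mock + NR replicate 1. Over the 22, r of the members with Nppa ran from 0.55 in Mylk to 0.80 in Myocd. With Acta1 it ran from -0.22 in Smtn to 0.06 in Myocd. These values are descriptions, and the points share a scaling by library total and the tissue that each piece held.

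**Figure D3:**
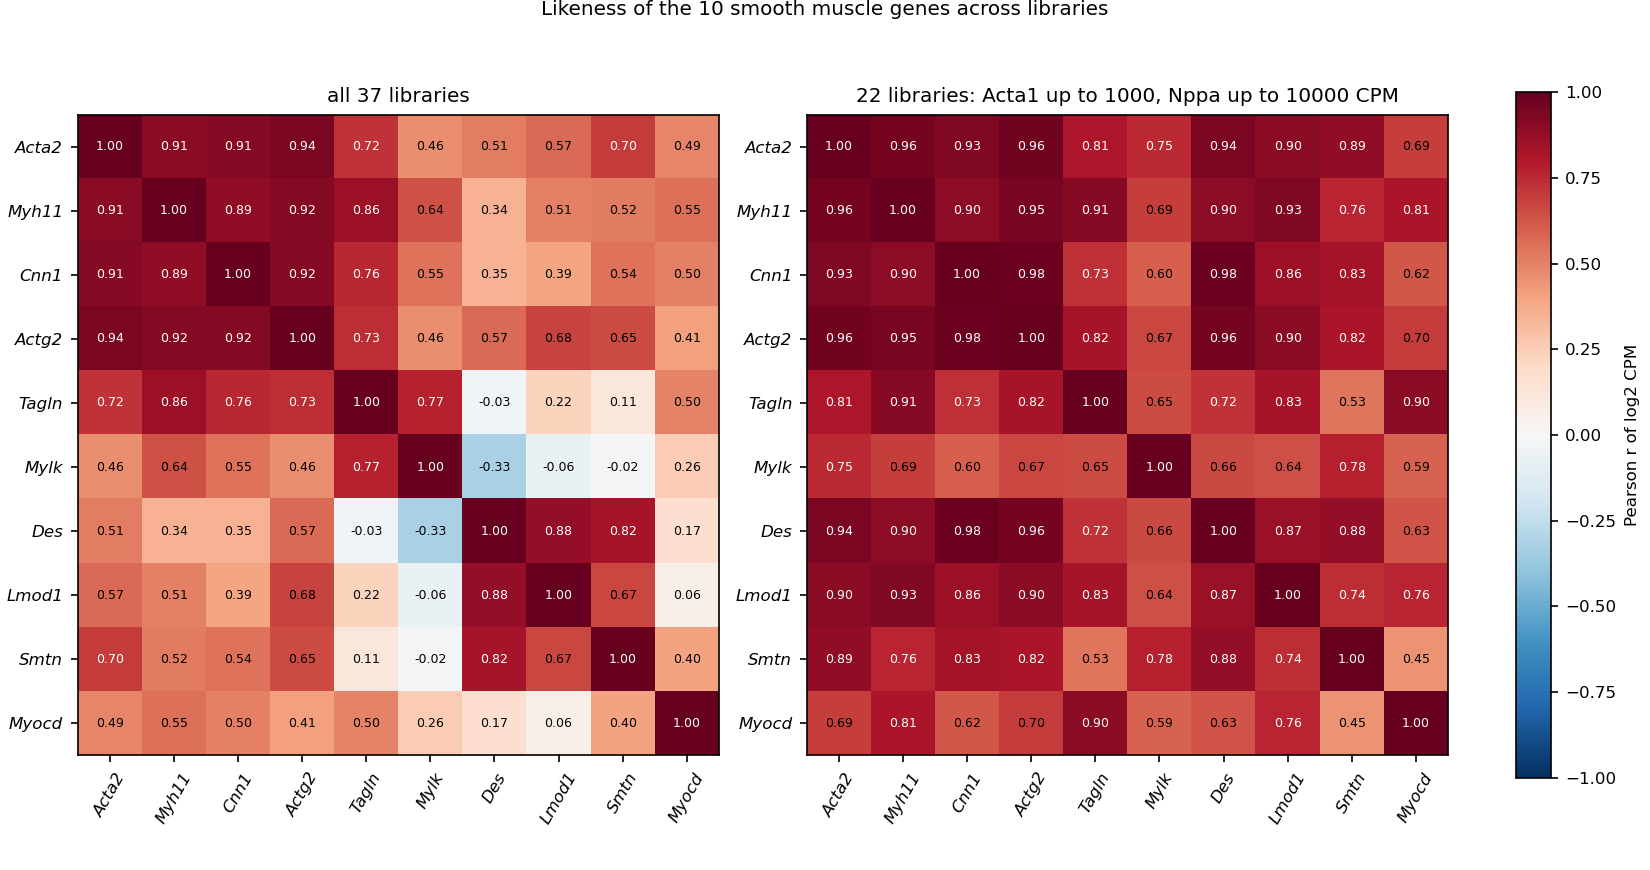
Pearson's r of log2 CPM between each pair of the 10 members, over all 37 libraries (left) and over the 22 libraries with Acta1 up to 1000 CPM and Nppa up to 10000 CPM (right). The upper left block of Acta2, Myh11, Cnn1 and Actg2 is at 0.89 or above in both, and the cells of Des with Tagln and Mylk are below 0 on the left only.

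The likeness of each member to the mean of all 10 (standardised log2 CPM, 37 libraries) ran from an r of 0.97 for Actg2, 0.96 for Acta2 and 0.95 for Myh11 to 0.58 for Myocd, 0.57 for Des and 0.49 for Mylk. Each member is itself part of that mean, which raises its r, so these values are not comparable with those of genes outside it. Of genes outside the lists, the 10 most like that mean were Optc (r = 0.90), Nov, Tmem130, Dlgap1, Pcp4, Syngr3, Snap25, Fut2, Kcne3 and Tpbg (r = 0.80). Nov, a secreted matrix protein, had a median of 34.9 CPM, while Tmem130 had a median of only 0.281 CPM and rests on few reads. For the 3 members least like the mean, the nearest genes were of different kinds. Nearest to Des were Cav3, the caveolin of muscle (r = 0.98), Moxd1 (r = 0.98) and Eno3, the enolase of muscle (r = 0.97). Nearest to Myocd were Smoc1 (r = 0.90), Mtus2 and the heart transcript Mhrt (r = 0.88 for both). Nearest to Mylk were E030013I19Rik (r = 0.79), Sdccag8 (r = 0.76) and Kazn (r = 0.75).

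Between the groups, desmin, leiomodin and smoothelin were lower in GCR lungs than in mock lungs, and no other comparison of 2 groups gave a called member in the fit of all 37 libraries. In GCR lungs Des was at 29.7, 55.8 and 365 CPM (lowest, median and highest), against 145, 740 and 3318 CPM in mock lungs. The ranges overlapped, with 4 of the 7 GCR libraries below every mock library. Lmod1 was at 5.45, 9.65 and 19.96 CPM in GCR lungs, against 7.21, 39.6 and 58.5 CPM in mock lungs. Smtn was at 14.5, 26.3 and 106 CPM in GCR lungs, against 53.1, 94.4 and 142 CPM in mock lungs. For both genes the ranges overlapped while the medians lay far apart. The skeletal muscle actin differed as well, with 0 of 7 GCR lungs over 1000 CPM of Acta1, against 4 of 7 mock lungs. In whole lung, fewer cells of a type and less RNA per cell cannot be told apart.

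By edgeR's quasi-likelihood test, 16.6% of all genes were called in GCR against mock, 8.03% higher and 8.52% lower. Among the members 3 of 10 were called, all lower. On the log2 scale Des fell by 3.43 (SE 0.98, adjusted p = 0.0212), Lmod1 by 1.64 (SE 0.52, adjusted p = 0.0329) and Smtn by 1.22 (SE 0.39, adjusted p = 0.0336). The median log2 fold change was -0.81 over the 10 members and -0.06 over all genes tested. Actg2, at 11.7, 27.9 and 109 CPM in GCR lungs against 37.5, 88.6 and 161 CPM in mock lungs, had a log2 fold change of -0.96 (SE 0.40, adjusted p = 0.0857). Acta2 and Myh11 had -0.69 and -0.68, and Cnn1 -0.94, with adjusted p from 0.163 to 0.207. Tagln, Mylk and Myocd had 0.15, -0.03 and -0.28 (adjusted p of 0.733 or more).

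All 3 calls depended on the libraries and terms in the fit. Without the 13 libraries over 1000 CPM of Acta1, 7 GCR and 3 mock lungs were left, and 0% of all genes were called. The log2 fold changes were then -0.58 for Des (SE 0.61, adjusted p = 0.645), 0.12 for Lmod1 (SE 0.33, adjusted p = 0.882) and -0.59 for Smtn (SE 0.48, adjusted p = 0.518). With Acta1 as a covariate in all 37 libraries they were -0.77, -0.42 and -0.76 (adjusted p = 0.414, 0.517 and 0.210). Of 18 skeletal muscle markers 17 were called lower in GCR against mock, and of 11 squamous epithelium markers 10, against 8.52% of all genes. Without the 4 libraries over 100000 CPM of Rn45s, of which 3 were GCR, the changes were -3.03, -1.31 and -0.70, with adjusted p from 0.269 to 0.420. None of the 3 was called without GCR replicate 2, without GCR replicate 5 or without mock replicate 6.

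**Figure D4:**
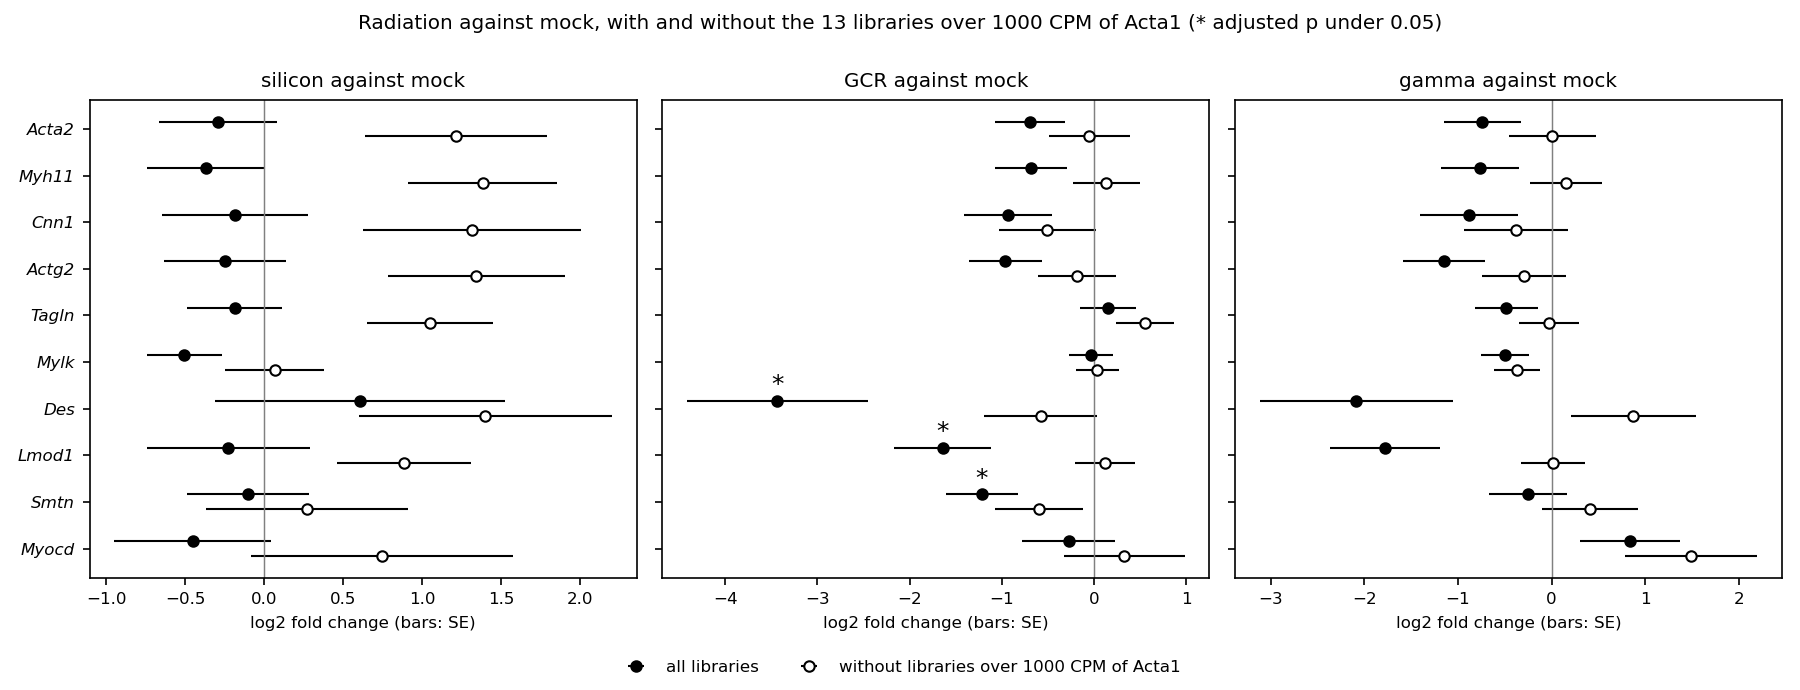
Log2 fold changes of the 10 members in silicon, GCR and gamma against mock, with bars for the SE, for all libraries (filled) and without the 13 libraries over 1000 CPM of Acta1 (open), and asterisks for an adjusted p under 0.05. Only Des, Lmod1 and Smtn in GCR carry an asterisk, and their open points lie at -0.58, 0.12 and -0.59.

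Within the GCR group the contractile genes spread widely. The libraries of GCR replicates 1 to 7 had 128, 170, 429, 1100, 154, 232 and 720 CPM of Acta2, against a range of 275 to 1141 CPM in the 7 mock libraries. Replicates 1, 2, 5 and 6 lay below every mock library, and replicates 3, 4 and 7 lay within the mock range. The coefficient of variation of Acta2 was 87.4% in GCR and 53.0% in mock. In the same order of replicates, Cnn1 was at 18.4, 58.8, 122, 293, 35.03, 39.9 and 236 CPM in GCR lungs, against 106 to 394 CPM in mock lungs. The same 4 libraries were below every mock library, and the coefficient of variation was 94.8% in GCR and 49.1% in mock. Mylk, in contrast, was at 150, 109, 214, 264, 169, 224 and 197 CPM in GCR lungs, against 151 to 302 CPM in mock lungs, with coefficients of variation of 27.1% in GCR and 25.99% in mock. Rn45s was over 100000 CPM in GCR replicates 2, 5 and 6, and Nppa was at 1.54, 15.6, 14.5, 1222, 5.31, 45.8 and 30.9 CPM in the 7 GCR libraries. The part of either in the spread was not tested.

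**Figure D5:**
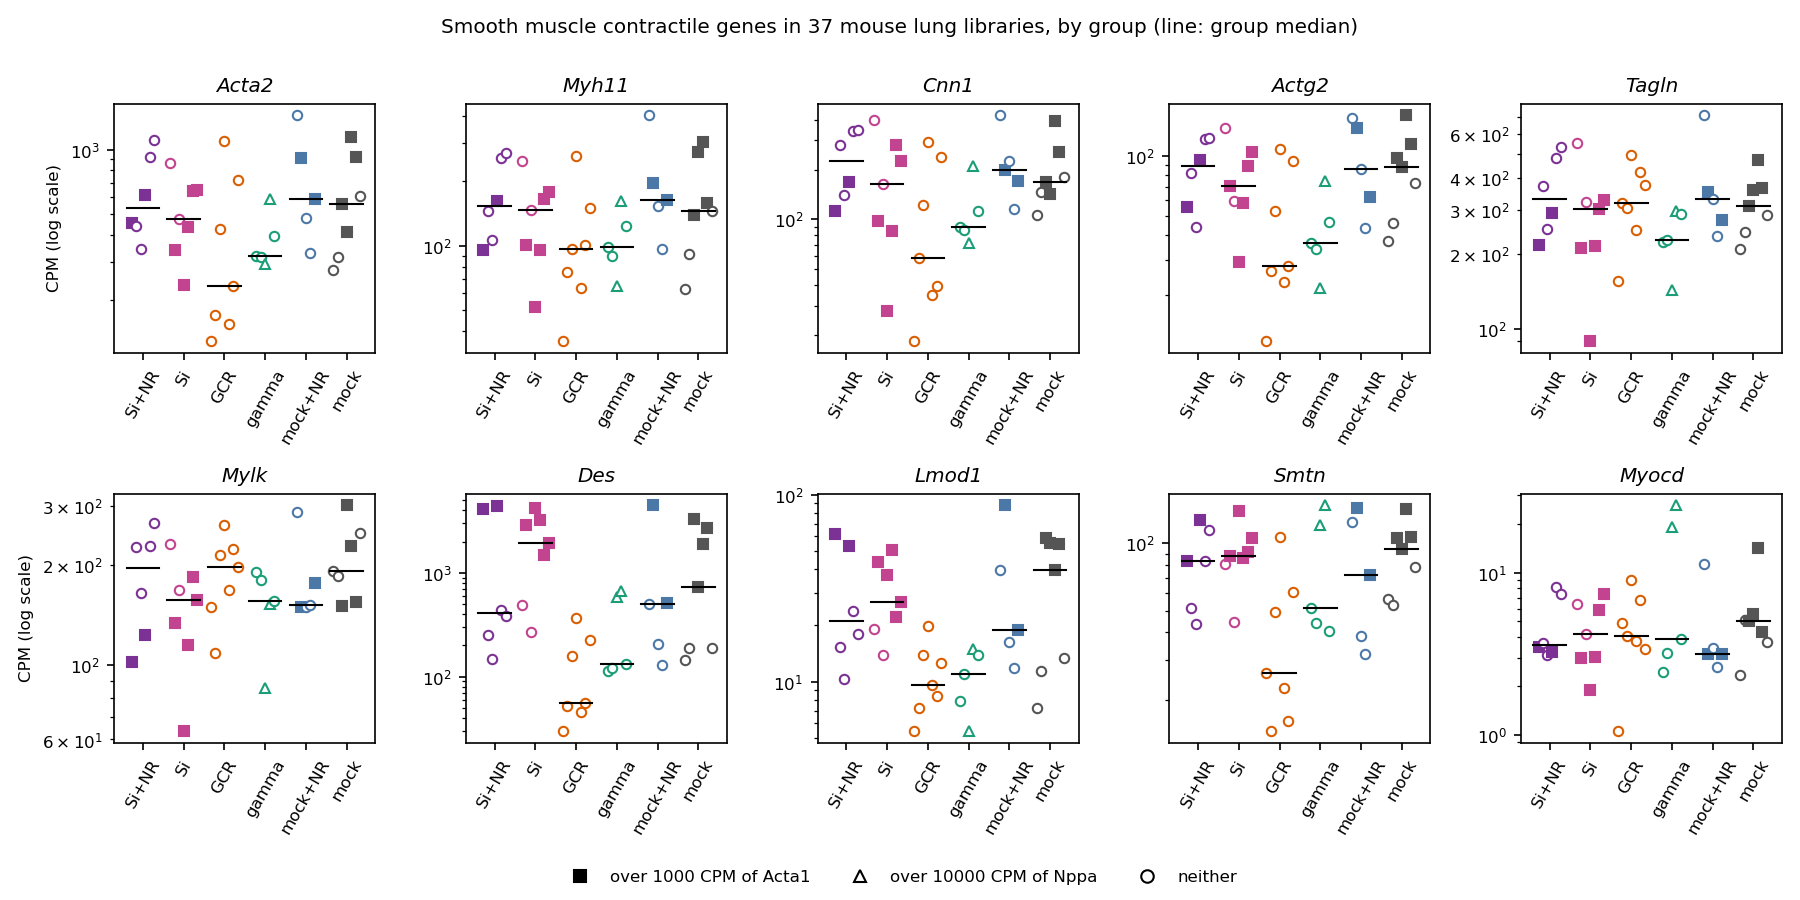
CPM of the 10 members (y axis, log scale) by group, 1 point per library in replicate order, with a line at the group median, squares for libraries over 1000 CPM of Acta1, triangles for those over 10000 CPM of Nppa and circles for the rest. In Des the squares lie at the top of each group that has them, and in Lmod1 9 of the 13 squares lie above every circle and triangle. GCR has no squares, with a Des median of 55.8 CPM against 740 CPM in mock.

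Silicon and gamma lungs gave no called member against mock lungs, with which the GCR comparison shares its controls. In silicon lungs Des was at 270, 1933 and 4219 CPM, against 145, 740 and 3318 CPM in mock lungs. Its log2 fold change was 0.61 (SE 0.92, adjusted p = 0.841), and the values of the 2 groups overlapped. Mylk had the smallest unadjusted p of the members, with 63.4, 157 and 232 CPM in silicon lungs, against 151, 191 and 302 CPM in mock lungs (log2 fold change -0.51, SE 0.24, adjusted p = 0.355). By edgeR 0% of all genes were called in silicon against mock, and 12.9% had an unadjusted p under 0.05, as did 1 of the 10 members. DESeq2 and limma voom called 0 members as well, and 2.5% and 0.00589% of all genes. Without the 13 libraries over 1000 CPM of Acta1, which left 2 silicon and 3 mock lungs, all 10 members had positive changes, where 9 of 10 had negative ones before. Their median was then 1.13, with 5 of 10 at an unadjusted p under 0.05 and 0 called, where 4.23% of all genes were called, 0.496% higher and 3.73% lower. Myh11 had the smallest adjusted p (log2 fold change 1.38, SE 0.47, adjusted p = 0.100). Both silicon lungs left in that fit were male, and silicon replicate 3 still had 403 CPM of Acta1. The members also vary together across libraries, so the 10 are not separate observations.

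In gamma lungs Actg2 was at 36.8, 34.2, 21.7, 75.0 and 46.8 CPM, against 37.5, 88.6 and 161 CPM (lowest, median and highest) in mock lungs. Lmod1 was at 7.86, 11.1, 5.43, 14.9 and 13.8 CPM in gamma lungs, against 7.21, 39.6 and 58.5 CPM in mock lungs. For Actg2 3 of the 5 gamma libraries lay below every mock library, and for Lmod1 1 of the 5. Their log2 fold changes were -1.15 (SE 0.44, adjusted p = 0.340) and -1.78 (SE 0.59, adjusted p = 0.257). These were the 2 members with an unadjusted p under 0.05. By edgeR 0.0295% of all genes were called in gamma against mock and 10.02% had an unadjusted p under 0.05. DESeq2 and voom also called 0 members, and 1.53% and 1.4% of all genes. Without the libraries over 1000 CPM of Acta1 the 2 changes were -0.29 and 0.01. Myocd, which was highest in the 2 Nppa-rich gamma libraries, had a change of 0.84 (SE 0.53, adjusted p = 0.634), and of 1.49 (SE 0.71, adjusted p = 0.558) without the libraries over the Acta1 limit.

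GCR and gamma lungs, both free of libraries over the Acta1 limit, were compared directly. In this comparison 5.7% of all genes were called, 2.66% higher and 3.04% lower, and 25.7% had an unadjusted p under 0.05. Among the members 0 of 10 were called by edgeR, DESeq2 or voom, and 2 of 10 had an unadjusted p under 0.05. Of all genes DESeq2 called 12.1% and voom 1.13%. Smtn was at 14.5, 26.3 and 106 CPM in GCR lungs, against 51.6, 43.9, 121, 148 and 40.6 CPM in gamma lungs. The 2 highest gamma values were those of the Nppa-rich libraries, and the log2 fold change was -0.96 (SE 0.41, adjusted p = 0.131). Myocd had a change of -1.11 (SE 0.52, adjusted p = 0.172), and Acta2 and Myh11 had 0.05 and 0.08 (SE 0.41 for both). Without GCR replicate 4, Smtn alone was called, with -1.21 (adjusted p = 0.0418), as were 15.4% of all genes.

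Silicon against gamma gave 0.247% of all genes called and 19.6% at an unadjusted p under 0.05. Of the members 0 of 10 were called by edgeR or DESeq2 and 4 of 10 had an unadjusted p under 0.05. DESeq2 called 6.92% of all genes. Des was at 270, 1933 and 4219 CPM in silicon lungs, against 113, 120, 592, 670 and 133 CPM in gamma lungs, a log2 fold change of 2.69 (SE 1.06, adjusted p = 0.155). Lmod1 had 1.55 (SE 0.57, adjusted p = 0.1296), Actg2 0.90 (SE 0.43, adjusted p = 0.241) and Myocd -1.29 (SE 0.52, adjusted p = 0.161). Limma voom with sample weights called 3 members here, Actg2, Des and Lmod1, and 30.8% of all genes, so the share of the members was near that of all genes. Of the silicon lungs 5 of 7 were over 1000 CPM of Acta1, and of the gamma lungs 0 of 5.

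NR left no called member, with or without silicon ions, in the fit of all 37 libraries. Acta2 was at 1442, 916, 480, 331 and 590 CPM in mock + NR lungs, against 275, 559 and 1141 CPM in mock lungs, and had a log2 fold change of 0.51 (SE 0.40, adjusted p = 0.604). In silicon + NR lungs it was at 347, 536 and 1106 CPM, against 235, 474 and 867 CPM in silicon lungs, with a change of 0.35 (SE 0.38, adjusted p = 0.754). The groups of both pairs overlapped over most of their range. By edgeR 0% of all genes were called in mock + NR against mock, in silicon + NR against silicon, in silicon + NR against mock + NR, and in the test of whether silicon acted differently with NR. Unadjusted p under 0.05 were found for 16.9%, 12.8%, 2.16% and 9.95% of all genes in these 4 comparisons and for 0 of 10 members in each. DESeq2 called 0 members in all 4, and 3.48%, 2.08%, 0.00589% and 1.93% of all genes in the same order. Voom called Des and Mylk in silicon + NR against silicon, where it called 24.8% of all genes, and no member in the other 3. Of all genes it called 5.85% in mock + NR against mock and 0% in the remaining comparisons.

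Without the libraries over 1000 CPM of Acta1, 3 mock + NR and 3 mock lungs were left, and 2.48% of all genes were called, with 0.134% of all genes called higher. Of the members 2 of 10 were then called, both higher in mock + NR. Myh11 was at 403, 152 and 96.8 CPM in those mock + NR lungs, against 62.6, 91.4 and 145 CPM in those mock lungs. Lmod1 was at 39.6, 16.2 and 11.9 CPM, against 7.21, 11.5 and 13.4 CPM in the mock lungs. In both genes the ranges overlap and mock + NR replicate 1 lies far above the rest. The 12 heart muscle markers summed to 12308 CPM in that library, the highest of the mock + NR group. The part of heart muscle in these values was not tested. Myh11 rose by 1.66 (SE 0.44, adjusted p = 0.0484) and Lmod1 by 1.47 (SE 0.39, adjusted p = 0.0493). In the same 24 libraries the silicon effect on Myh11 differed with NR by -2.22 (SE 0.65, adjusted p = 0.0379), where 7.79% of all genes were called. That estimate rests on 2 silicon lungs, and in the fit of all 37 libraries it was -0.03 (SE 0.56).

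Over all 6 groups at once, 21.4% of genes differed by the same test, and 2 of the 10 members, Des (adjusted p = 0.0270) and Lmod1 (adjusted p = 0.0390). Actg2 had an adjusted p of 0.0737. With Acta1 as a covariate 0 members were called. Neither call held without GCR replicate 1, 2, 5 or 6. By median, Des was highest in silicon (1933 CPM), followed by mock (740), mock + NR (501), silicon + NR (411), gamma (133) and GCR (55.8). Within each of these neighbouring pairs the ranges of the libraries overlapped. Between females and males 0.0589% of genes were called and 0 of 10 members, with 0 of 10 at an unadjusted p under 0.05. DESeq2 and voom called 0 members there too, and 0.0707% and 0.0825% of all genes.

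Of 40 partners of the contractile filaments and of calcium handling, 7 were called in GCR against mock, 2 higher and 5 lower, where 16.6% of all genes were called. This share was near that of all genes. Hspb6, a small heat shock protein of muscle, fell by 4.65 (SE 1.22), Tpm2, beta tropomyosin, by 4.15 and Pdlim3, a protein of the muscle Z line, by 3.09, with adjusted p from 0.0149 to 0.0208. Actn1, the non-muscle alpha actinin, rose by 1.21 (adjusted p = 0.0154) and Itpr1, a calcium release channel, by 0.60 (adjusted p = 0.0173). The median change of the 40 was -0.41, against -0.06 over all genes tested. Without the libraries over 1000 CPM of Acta1 the median of the 40 was -0.04, and 0 of them were called, where 0% of all genes were called. The slope on Acta1 was called higher in 15 and lower in 6 of the 40, against 20.2% and 12.9% of all genes. Pdlim7 (0.24), Tpm2 (0.42) and Pdlim3 (0.33) had the smallest p of those that rose. Those that fell with the smallest p were Itpr1 (-0.04), the integrin Itga8 (-0.09) and the calcium channel Cacna1c (-0.05).

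Against Nppa, 13 of the 40 partners were called higher and 0 lower, against 6.31% and 1.59% of all genes. Pln, phospholamban, which restrains the calcium pump of heart and smooth muscle, rose by 0.45 per doubling of Nppa, Fhl2 by 0.29 and Casq2, the cardiac calsequestrin, by 0.38. In GCR against gamma 3 of the 40 were called, against 5.7% of all genes. Pln fell by 3.26 (adjusted p = 0.0372), Fhl2 fell by 2.24 (adjusted p = 0.0480) and Actn1 rose by 1.21 (adjusted p = 0.0412). Of 24 regulators of the smooth muscle programme, 1 was called in GCR against mock, the Notch ligand Jag1, which rose by 1.06 (adjusted p = 0.00709), where 16.6% of all genes were called. The median change of the 24 was -0.17. The slope on Acta1 was called higher for 5 of the 24 and lower for 6, against 20.2% and 12.9% of all genes. The share that rose was near that of all genes. Mef2c, a muscle transcription factor, rose by 0.29 per doubling of Acta1, Prrx1, a factor of mesenchyme, by 0.15 and Fgf10 by 0.13. Serum response factor itself, Srf, was among the 5 that rose, at 0.06 (adjusted p = 0.00162), with a larger p than these 3. Regulators that fell with the smallest p were Rbpms (-0.05), Hhip (-0.07) and Tcf21 (-0.10). Silicon against gamma gave 1 called gene in each list, Cacna1c (-1.12) and the transcription factor Gata6 (-1.30), against 0.247% of all genes.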

How the data were processed

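RNA of mouse lung was measured in 37 libraries, grouped by the labels into silicon + NR, silicon, GCR, gamma, mock + NR and mock. Per the labels' protocols, RNA was extracted with Trizol, and cDNA from the SMART-seq v4 kit went into Nextera XT libraries. STAR 2.5.2, HTSeq 0.13.5, Trimmomatic 0.36, MultiQC 1.12 and FastQC 0.11.4, with the build mm10, are listed in the submitters' processing notes without their roles. Neither the annotation nor the strand setting is stated there. The authors deposited raw counts, whole numbers of reads for each gene symbol, with no normalization. Coordinates, exon lengths and overlaps come from GENCODE M21 (GRCm38). Replicate numbers follow accession order and pair no samples, and whether the GCR mice formed a batch of their own is not given. No 2 libraries were identical, and none was left out of the comparisons on 37 libraries. P-values measure the spread between mice. Without molecular identifiers, counts are not independent molecules.

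CPM were computed here from the counts and library totals. Tests used edgeR 4.0.16 in R 4.3.3 with TMM scaling, filterByExpr, and the 6 groups and sex as terms, adjusted by the Benjamini-Hochberg method over all genes tested. They were also run on simulated counts. These held no differences in tissue between libraries, so that check does not cover calls that follow such differences. The alternatives were limma voom (limma 3.58.1), DESeq2 1.42.0, scaling by RLE, all genes unfiltered, no sex term, fits of only the groups compared, Acta1 or Nppa as covariates, and leaving out each library or each kind of library that stood apart. The slope on Nppa, with Acta1 also in the model, was added after the data were seen. The members, gene lists and library limits were chosen with earlier results of these data known. The rule for named genes took the 10 members, at most the 3 called partners or regulators of smallest p in each direction, and the genes most like the members by r. Srf was named after its value was seen.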

Additional observations from a re-analysis of the deposited data

Results flagged for a closer look

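In 5 of 60 sets of member and group, a library lay far from the others of its group by Dixon's criterion. Chance alone meets it in about 1 of 20 independent sets of normally distributed values. The CPM here are skewed and the members vary together, so that rate is no yardstick for the 5. In mock + NR replicate 1, Tagln was at 713 CPM, where the other 4 libraries of the group ran from 236 to 353. Mylk was at 289 CPM in the same library, with the others from 149 to 177. Myocd was at 11.2 CPM there, with the others from 2.61 to 3.46. Acta2, Myh11 and Cnn1 were also highest of the group in that library, at 1442, 403 and 425 CPM. Its Acta1 was at 5.16 CPM, and its 12 heart muscle markers summed to 12308 CPM, the highest of the group.

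In mock + NR replicate 2, Des was at 4488 CPM, where the other 4 ran from 130 to 513, and Acta1 was at 29653 CPM in that library. In mock replicate 5, Myocd was at 14.3 CPM, where the other 6 libraries ran from 2.36 to 5.54, and Nppa was at 2024 CPM, the highest of the mock group. The causes were not tested.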

How the results depend on the processing

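Of the 3 members called in GCR against mock, 0 were called with voom (8.93% of all genes) or without the Acta1-rich libraries (0% of all genes). Nor was any called without the Rn45s-rich libraries, with Acta1 as a covariate, or with Acta1 and Nppa as covariates. In a fit of only those groups 1 was called (Des; 5.78% of all genes), and with each library left out 0 to 4 were. Lmod1 then turned to 0.12 without the Acta1-rich libraries. Leaving 1 library out moved Des between -3.75 and -2.97, and it was called in 34 of 37 such fits, Lmod1 and Smtn in 29 each. Without the Acta1-rich libraries the slopes on Acta1 were -0.27 in Des, -0.25 in Smtn and -0.13 in Lmod1, and 0 members were called. Acta1 covers little range there, so the change of sign is not a result. By voom 5 members had a called slope in all libraries, where it called 58.3% of all genes. Any difference among the 6 groups was called for 4 members by voom (38.4% of all genes), for 1 without the Acta1-rich libraries (Myh11; 5.04% of all genes), for 1 without the Nppa-rich libraries (Des; 23.1% of all genes), and for 0 without the Rn45s-rich libraries or with either covariate set, and for 0 to 3 with each library left out. Where 0 were called, voom called 2 in silicon + NR against silicon and 3 in silicon against gamma, and 24.8% and 30.8% of all genes. Fits without the Acta1-rich libraries called 2 in mock + NR against mock and 1 for the dependence of silicon on NR, and 2.48% and 7.79% of all genes. With each library left out, 0 to 1 were called in GCR against gamma. The causes were not tested. DESeq2, RLE factors, no count filter and no sex term moved none of these counts by over 1.5 times. Over all genes, calls in GCR against mock ran from 501 to 4087 with each library left out, against 2811. Calls of the slope on Acta1 ran from 8 to 9892 over the 12 other alternatives, against 5629.

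No paired analysis was possible because the replicate numbers were given in accession order. The depth limits Myocd most, with a smallest count of 28, and the fits without the Acta1-rich libraries rest on 2 silicon, 3 mock + NR and 3 mock lungs. All silicon and mock + NR lungs in those fits were male.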

Other observations

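Pericytes, the contractile cells of capillaries, share some of these genes. Their 11 markers summed to 98.03, 232 and 321 CPM (lowest, median and highest) in GCR lungs, against 240, 313 and 467 CPM in mock lungs, and 2 of the 11 were called lower, against 8.52% of all genes. The 12 heart muscle markers summed to 78.6, 725 and 7286 CPM in GCR lungs, against 645, 4758 and 13215 CPM in mock lungs, and 2 of the 12 were called lower, against the same share of all genes. In gamma lungs they ran from 694 to 54705 CPM. Of 10 fibroblast markers 2 were called lower in GCR against mock, and of 6 airway markers 4 were called higher, against 8.52% and 8.03% of all genes.

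Without the 13 libraries over 1000 CPM of Acta1, all 10 members were higher in females than in males, with a median log2 difference of 0.70. Unadjusted p under 0.05 were found for 6 of the 10, against 4.29% of all genes. None was called by edgeR (adjusted p of 0.703 or more), and this setting was looked at with earlier results known. Acta2 had a difference of 0.96 (SE 0.30) and Myh11 one of 0.84 (SE 0.24). The members vary together, with a median r of 0.82 between pairs over 22 of these libraries, so the 10 are not separate observations. No silicon or mock + NR lung left in this fit was from a female, so the difference rests on the other groups. Over all 37 libraries the median difference was 0.24, with 0 of 10 at an unadjusted p under 0.05. The fitted differences are adjusted for group, and the cause of the gap between the 2 fits was not tested.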
